A study of Mus musculus with 39 samples.

Results

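The samples described here are the 10 plaque captures from mice that received PBS and no inhibitor, out of 39 samples in the series, and they were taken by their label alone. Every mouse of the series was a female Apoe-/- animal of the strain B6.129P2-Apoe<tm1Unc>, which lacks apolipoprotein E and accumulates cholesterol-rich arterial plaques. The mice had eaten a diet with 0.2% cholesterol by weight for 12 weeks when treatment began at an age of 20 weeks, and stayed on it. The PBS mice were injected into a vein 4 times within 7 days and were killed 24 hours later, so they are injected controls; the protocol text calls the placebo saline. The other samples are labelled TRAF6i-HDL (10), mTORi-HDL (10) and S6K1i-HDL (9), inhibitors carried on high-density lipoprotein particles, and are used below only to show how far libraries of this kind vary. RNA came from plaque areas rich in CD68 protein, cut by laser from aortic root sections of 6 µm, and was amplified as a whole transcriptome. CD68 staining of 1 section in every 8 guided the capture, so the level of Cd68 is partly set by the sampling. The labels do not tie a sample to a mouse, so all p-values measure the spread between these samples, and they would be too small if samples shared a mouse.

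Plaque macrophages take up modified lipoproteins and become foam cells, which digest cholesterol esters in lysosomes and return cholesterol through the transporters Abca1 and Abcg1. Smooth muscle cells of the artery wall and fibrous cap carry a contractile programme that serum response factor drives through CArG boxes, and they lay down collagen and proteoglycans. Interferon gamma from T cells induces MHC class II genes, guanylate-binding proteins and the chemokine Cxcl9 in macrophages. In captured tissue, fewer cells of a type and less RNA per cell cannot be told apart.

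Counts assigned to genes numbered 50091 in replicate 9 and 503388 to 3314493 in the other 9 libraries, and 6679 to 14017 genes had at least 1 count. In replicate 9 a single count was worth 19.96 CPM, the unit used below for counts scaled to a common total of gene counts, so its low values are coarse. Rn45s, the precursor of ribosomal RNA, took 15.03% to 30.01% of gene counts in replicates 7 to 10 and 2.28% to 7.89% in replicates 1 to 6, with no library between. The PBS median of 7.49% was below the medians of the other labels, which were 15.9% (TRAF6i-HDL), 25.6% (mTORi-HDL) and 41.8% (S6K1i-HDL). No pair of PBS libraries agreed within sampling noise; the lowest chi-square per degree of freedom was 2.99, for replicate 10 with the shallow replicate 9. Many genes differed between the libraries on either side of this gap. Levels are therefore given for replicates 7 to 10 and for replicates 1 to 6. These are sets of libraries seen in the data and not groups of the study. Rn45s is part of the total, so its larger share lowers the CPM of every other gene in replicates 7 to 10. Narrow separations of the sets can close with Rn45s left out. The share of all genes without overlap was not counted. Overlap, or its lack, therefore describes the named genes and is not a result about their lists.

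The most abundant RNAs were Rn45s, Malat1, Lars2, Actb, Spp1 and Xist by mean CPM, followed by Ctsb, Gpnmb and Fth1. The 25 genes with most counts held 44.3% of all gene counts on average (37.1% to 57.2%). After Rn45s came Malat1, a nuclear noncoding RNA, at 78617, 109560 and 140200 CPM as lowest, median and highest of the 10 libraries. Spp1, which encodes osteopontin, had 7546, 14853 and 38413 CPM. Gpnmb, a glycoprotein of lipid-loaded macrophages, had 2136, 11912 and 29843 CPM. Replicate 4 was highest and replicate 9 lowest for both of these.

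The lysosomal proteases Ctsb, Ctss, Ctsl and Ctsd were among the 25, at 14639 ± 8114, 9233 ± 5133, 8959.6 ± 6139.7 and 5291 ± 1657 CPM (mean ± SD, n = 10 here and below). Psap, the precursor of proteins that help degrade sphingolipids, was at 2276 to 6432 CPM in replicates 7 to 10 and 12575 to 15680 CPM in replicates 1 to 6. Ctsb was at 2675 to 7736 CPM in replicates 7 to 10 and 17993 to 24699 CPM in replicates 1 to 6, so the library sets did not overlap for either gene. The ferritin chains Fth1 and Ftl1, which store iron, were at 12936 ± 5013 and 3636 ± 1214 CPM, and Mmp12, the macrophage elastase, at 3379.5 ± 1144 CPM. Matrix genes followed, with Mgp, an inhibitor of calcification, at 7579 ± 3059.8 CPM, and the proteoglycan Bgn and the collagen-binding Sparc at 4281 ± 1103 and 3519 ± 1603 CPM. Fn1, fibronectin, went the other way from the cathepsins: it was at 5374 to 14314 CPM in replicates 7 to 10 and 3369 to 4992 CPM in replicates 1 to 6. Xist, the X-inactivation RNA of these female mice, was at 7759 to 12133 CPM in replicates 7 to 10 and 16522 to 25463 CPM in replicates 1 to 6.

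Between genes, levels can be compared only per length of transcript. Scaled per kilobase of exon to a fixed total (TPM-like values), Malat1 (52751 ± 14714), Mgp (39489 ± 12008), Spp1 (36615 ± 15421) and Actb, cytoskeletal actin (34333 ± 11475), were highest, followed by Fth1 (26541 ± 6956), Ctss (20813 ± 8831), Lars2 (19909 ± 17662) and Lyz2 (15394 ± 4199). From Mgp to Actb, neighbours in this order differed by less than either SD. Mgp has 617 bases of exon and stood at rank 2 per kilobase but at rank 13 by counts. Tmsb4x, Ftl1, B2m and Psap came next at 12379 ± 3319, 12155 ± 3166, 11959 ± 3820.3 and 11834 ± 4646, then Gpnmb, Ctsb and Ctsd at 9628 ± 4534, 9449 ± 4171 and 8126 ± 2259.5, neighbours that again lay within an SD of each other. Rn45s has no exon length here and is left out of this order. Lars2, annotated as a mitochondrial leucyl-tRNA synthetase, varied with the set: 22799 to 44726 CPM in replicates 7 to 10 and 3941 to 18135 CPM in replicates 1 to 6. Its level rose by 0.96 ± 0.13 log2 units (SE) per doubling of the Rn45s share. Whether its counts come from its own messenger RNA was not tested.

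**Figure D1:**
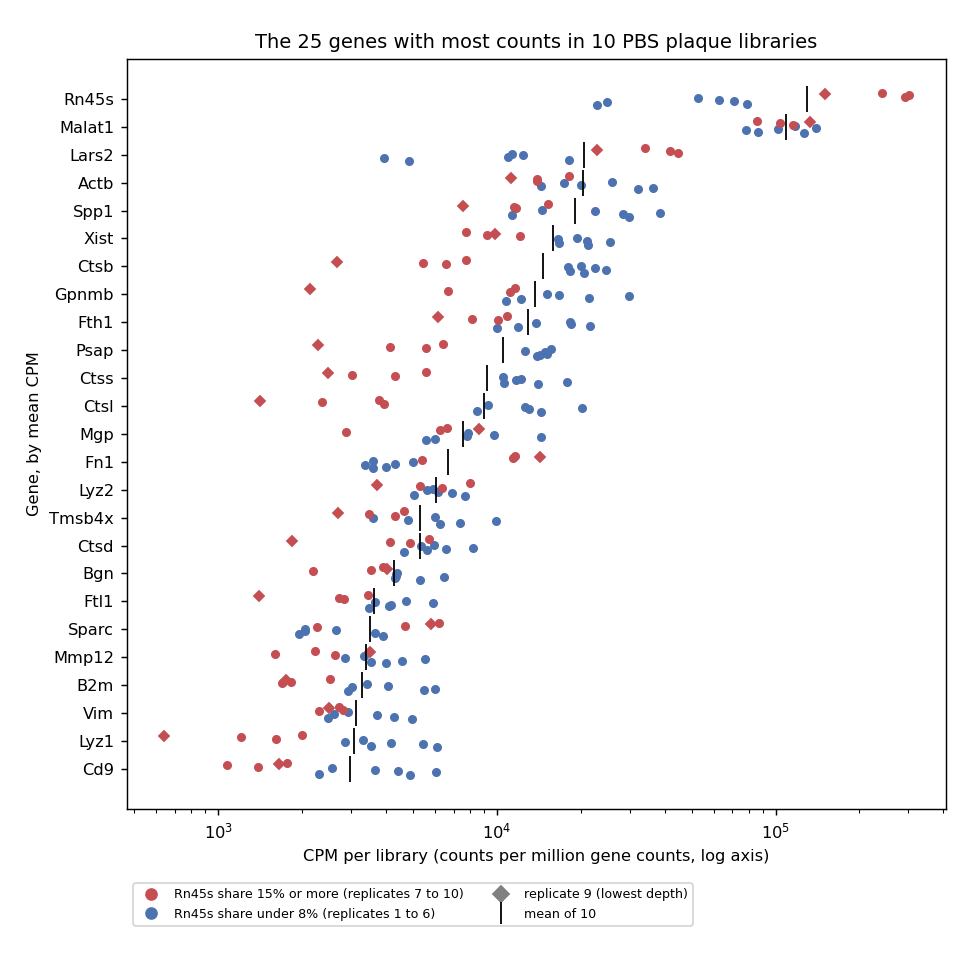
CPM on a log axis of the 25 genes with most counts, 1 point per PBS library and a bar at the mean; red marks libraries with an Rn45s share of 15% or more (replicates 7 to 10, replicate 9 as a diamond) and blue the others. Rn45s, Lars2 and Fn1 were highest in the red libraries, and Ctsb, Psap, Ctss and Ctsl in the blue ones.

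All 4 given macrophage markers were counted in every library. Every sample was a capture guided by CD68, so these levels cannot be set against plaque areas poor in CD68. Cd68, a lysosomal glycoprotein, was at 604, 555, 239.6 and 725 CPM in replicates 7 to 10 and at 1097 to 1246 CPM in replicates 1 to 6. Laptm5, a lysosomal membrane protein of blood-derived cells, had 359, 624 and 915 CPM as lowest, median and highest. Emr1, which encodes F4/80, had 19.96, 81.03 and 109 CPM. Lyz2, lysozyme, had 3713, 6026 and 8029 CPM. Replicate 9 was lowest for all 4 and held 1 count of Emr1. The sets of libraries did not overlap for Cd68, overlapped narrowly for Laptm5 (359 to 585 and 568 to 915 CPM) and widely for Emr1 and Lyz2, which was highest in replicate 10.

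Of the 24 macrophage genes 23 had counts in at least 5 libraries and 21 in all 10; the exception, Cd163, a haemoglobin scavenger receptor, had 1 count in all. Their sum was 16956, 13523, 10401 and 20206 CPM in replicates 7 to 10 and 27169 to 37289 CPM in replicates 1 to 6. The chains of the complement component C1q, made by tissue macrophages, differed between the sets. C1qb was at 179.7 to 504 CPM in replicates 7 to 10 and 1066 to 1709 CPM in replicates 1 to 6, C1qc at 139.8 to 239 and 755 to 1017 CPM and C1qa at 29.7 to 44.2 and 145 to 212 CPM for the same sets. The immunoreceptor adaptor Fcer1g was at 79.9 to 354 and 533 to 1009 CPM, and its relative Tyrobp at 279 to 566 and 558 to 1113 CPM. Of the scavenger receptors, Msr1 was at 159.7 to 255 and 271 to 483 CPM and Cd36 at 325 to 539 and 446 to 1086 CPM. Cd36 overlapped in CPM and Tyrobp did narrowly, and Msr1 would too with Rn45s left out of the total.

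Surface receptors and regulators were more even. Csf1r, the receptor for the macrophage growth factor CSF-1, was at 85.3 to 119.8 and 75.5 to 132 CPM in replicates 7 to 10 and 1 to 6. Itgam, an integrin chain of myeloid cells, was at 172 to 279 and 128 to 235 CPM, and Mertk, which binds dying cells, at 85.3 to 116 and 67.5 to 179 CPM. Spi1, which encodes the myeloid transcription factor PU.1, was at 16.9 to 26.9 and 12.3 to 36.95 CPM. The sets overlapped for all 4 of these genes. Mpeg1, the pore-forming perforin-2, was at 951 to 1297 and 1351 to 2334 CPM, and the lysosomal protease Lgmn at 439 to 829 and 961 to 1609 CPM. Neither gene overlapped in CPM, but both would with Rn45s left out of the total. Genes of resident-like macrophages were led by Sepp1, a selenium carrier, at 604 to 995 and 1891 to 5197 CPM, and Gas6, a ligand of Mertk, at 113 to 219.6 and 193 to 572 CPM, while Lyve1 stayed at 0 to 5.29 CPM and Timd4 had counts in 4 libraries. Cd5l, a protein secreted by macrophages, differed further: 37.7 to 163 CPM in replicates 7 to 10 and 1006 to 1814 CPM in replicates 1 to 6.

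The start region of Laptm5 is shown because PU.1, a factor that macrophages depend on, is known to bind GAGGAAG-type sites. The window covers 250 bases before and 50 after the annotated start, at chr4:130913066-130913365 on the plus strand (RefSeq, GRCm38.p6). Capitals mark the 1 match to GAGGAAG, which lies on the minus strand and reads here as its reverse complement, with its first base 39 bases before the start.
Laptm5: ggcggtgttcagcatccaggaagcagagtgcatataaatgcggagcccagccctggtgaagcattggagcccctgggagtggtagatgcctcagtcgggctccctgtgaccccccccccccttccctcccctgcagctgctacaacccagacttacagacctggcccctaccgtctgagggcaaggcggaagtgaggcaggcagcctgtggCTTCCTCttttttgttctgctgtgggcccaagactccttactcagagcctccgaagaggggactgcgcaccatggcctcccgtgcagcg
Both strands of every window were searched. Of the 24 macrophage genes 16 had an entry in the promoter table, Emr1 not among them, and 6 of the 16 held GAGGAAG (37.5%), against 15.4% of all 27025 genes in the table. The letters were also in 4 of 10 endothelial and 5 of 15 foam cell genes with an entry. A match describes letters and is not a site of binding. Laptm5 itself was at 568 to 915 CPM in replicates 1 to 6.

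Foam cell and lipid-associated genes were the most abundant of the cell type lists. Their sum over 22 genes was 25194 to 56880 CPM in replicates 7 to 10 and 74623 to 143630 CPM in replicates 1 to 6, with replicate 4 highest, and 21 of the 22 were counted in all 10 libraries. The cholesterol exporter Abca1 was at 958 to 1652 CPM in replicates 7 to 10 and 1919 to 2706 CPM in replicates 1 to 6. Its partner Abcg1 was at 310.3 to 395 and 677 to 1041 CPM for the same sets. Neither gene overlapped in CPM, but Abca1 would with Rn45s left out of the total. Trem2, a lipid-sensing receptor, was at 97.6 to 133 and 172 to 346 CPM, and Lgals3, galectin-3, at 299 to 786 and 1159.8 to 2153 CPM. Lpl, lipoprotein lipase, was at 978 to 1874 and 1825 to 2865 CPM, and the lysosomal acid lipase Lipa at 219.6 to 513 and 562 to 740.3 CPM. Of the carriers that move cholesterol out of lysosomes, Npc2 was at 275 to 353 and 467 to 586 CPM, while Npc1 overlapped at 79.9 to 137 and 73.8 to 157 CPM. Plin2, which coats lipid droplets, was at 179.7 to 304 and 252 to 527 CPM, and Fabp5, a fatty acid carrier, at 239.6 to 1432 and 785 to 1776 CPM, both with overlap. Fabp4, its relative, was at 828 CPM in replicate 3 and 39.9 to 369 CPM in the other 9.

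**Figure D2:**
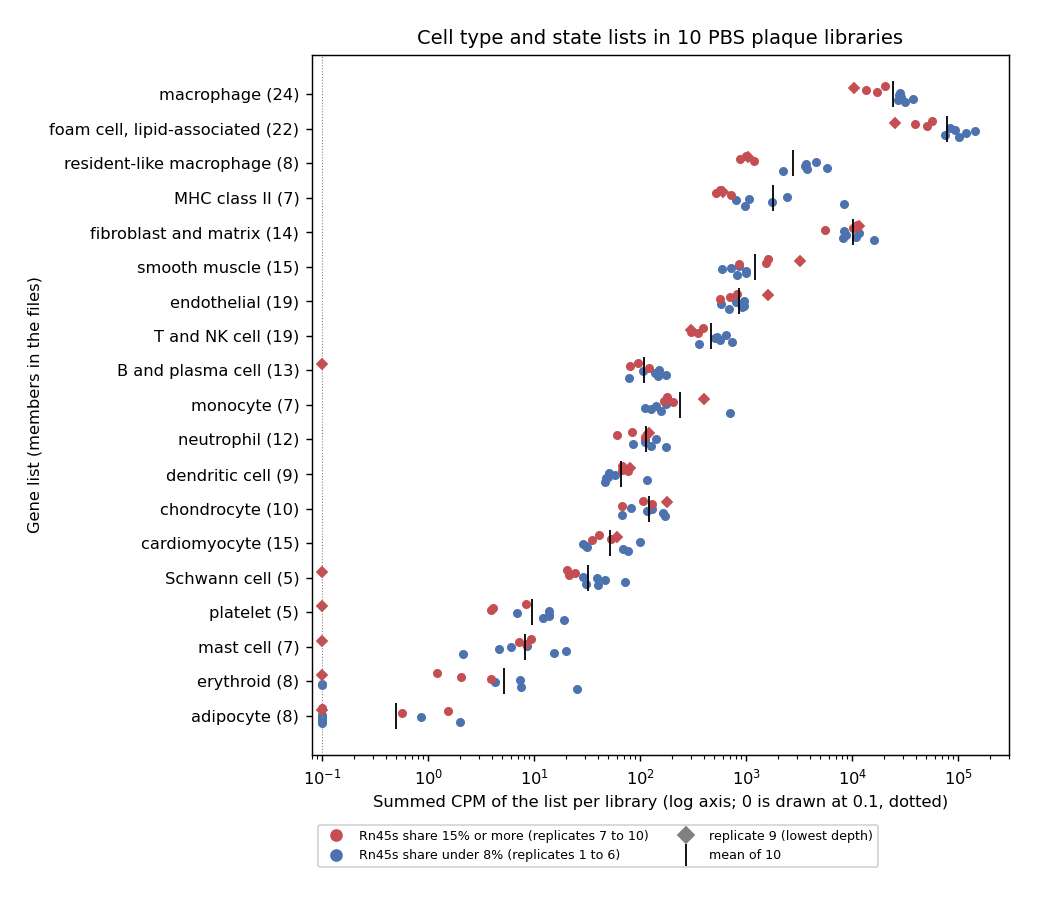
Summed CPM of 19 cell type and state lists on a log axis (0 drawn at 0.1), 1 point per PBS library with colours as in the plot of single genes. Of the cell type lists the foam cell list lay highest and the adipocyte list lowest, and the macrophage and matrix lists overlapped.

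Smooth muscle genes were found in every library, far below the macrophage genes. Their sum over 15 genes was 848, 1543, 3214 and 1607 CPM in replicates 7 to 10 and 584 to 999.7 CPM in replicates 1 to 6; the value of replicate 9 rests on 161 counts. Acta2, smooth muscle actin, was at 146, 344, 719 and 347 CPM in replicates 7 to 10 and at 67.9 to 195 CPM in replicates 1 to 6, so that replicate 7 alone fell inside the range of the other set. Tagln and Tpm2, which bind or stabilise actin filaments, were at 39.2 to 279 and 13.7 to 83.4 CPM and at 36.95 to 299 and 19.8 to 40.2 CPM. Lmod1, a promoter of filament growth in smooth muscle, was at 15.7 to 99.8 and 1.05 to 12.5 CPM, with no overlap. Cald1, which other stromal cells also use, made the largest contribution at 299 to 1238 CPM. Markers of the mature contractile state were scarce: Myh11, the smooth muscle myosin, was at 3.16 to 76.9 CPM, Cnn1 at 0 to 7.95 CPM and the transcription coactivator Myocd at 0 to 19.96 CPM. Per kilobase, the list averaged 1288 TPM-like units and the macrophage list 54410.

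Myl9, a regulatory light chain of smooth muscle myosin, is shown with its start region because its window was the 1 of 11 with an entry among the 15 smooth muscle genes to hold a CArG box, the site of serum response factor. The window is chr2:156775214-156775513 on the plus strand (RefSeq, GRCm38.p6). Capitals mark the box, whose first base lies 161 bases before the start.
Myl9: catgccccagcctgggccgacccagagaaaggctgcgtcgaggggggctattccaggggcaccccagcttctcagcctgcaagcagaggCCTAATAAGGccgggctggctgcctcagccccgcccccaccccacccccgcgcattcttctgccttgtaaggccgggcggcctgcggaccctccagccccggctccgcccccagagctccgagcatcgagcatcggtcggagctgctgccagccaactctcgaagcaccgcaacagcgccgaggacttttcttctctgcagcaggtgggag
A CArG box was found in 1.81% of all genes in the table and in 1 of the 16 macrophage genes with an entry; Tagln and Myh11 had no entry. Myl9 was at 22.96 to 99.8 CPM in replicates 7 to 10 and 8.44 to 23.8 CPM in replicates 1 to 6, overlapping in a narrow range. It was also among the 5 genes whose log2 CPM ran closest to Acta2 over the 10 libraries, of 6340 compared: Smoc1 (Pearson r = 0.968), Lbh (0.958), Myl9 (0.953), Smc4 (0.934) and Tagln (0.933). Within replicates 1 to 6 these r were 0.908, 0.848, 0.834, 0.917 and 0.858. They describe libraries that share depth and ribosomal RNA share and carry no test. For Cd68 the closest were Cdip1 (0.991 over 10 libraries, 0.852 within replicates 1 to 6), Mrpl9 (0.99 and 0.808) and Sulf2 (0.989 and 0.783). For Lyz2 they were Smu1 (0.94 and 0.715), Pgd (0.934 and 0.823) and Dapk1 (0.93 and 0.792), and for Pecam1 Cd164 (0.834 and 0.884), Phxr4 (0.826 and 0.924) and Cpne1 (0.813 and 0.872).

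Endothelial genes were detected at a level like that of smooth muscle, with 568, 808 and 1617 CPM summed over 19 genes as lowest, median and highest. Replicate 9 was highest, on 81 counts. Pecam1, the adhesion molecule of endothelial junctions, was at 66.1 to 199.6 and 84.8 to 179.9 CPM in replicates 7 to 10 and 1 to 6, and the junctional cadherin Cdh5 at 47.8 to 219.6 and 53.98 to 123 CPM. Emcn, a sialomucin, was at 112 to 239.6 and 97.003 to 314 CPM, Vwf, von Willebrand factor, at 111 to 339 and 45.3 to 159.8 CPM, and Eng, a TGF-beta co-receptor, at 71.7 to 199.6 and 67.5 to 116 CPM. The sets overlapped for all 5. Cldn5, a tight-junction protein, had counts in 2 libraries.

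Lymphoid genes were sparse. The 19 T and NK cell genes summed to 299, 449 and 727 CPM as lowest, median and highest, of which Il7r, the IL-7 receptor chain, gave 349 ± 77.00 CPM. Cd3e, a chain of the T cell receptor complex, was at 62.9 CPM in replicate 2 and 0 to 19.8 CPM in the other 9. Cd4, which macrophages can also carry, was at 0 to 56.2 CPM, Cd28, a costimulatory receptor, at 0 to 69.3 CPM, and Nkg7, of cytotoxic granules, at 33.95 CPM in replicate 2 and 0 to 5.96 CPM in the other 9. Defining B cell genes were at or near 0: Ms4a1 had counts in 2 libraries, Cd79a in 4, and Pax5 and Mzb1 in none. The B and plasma cell list reached 0 to 177 CPM through Blnk, a signalling adaptor (0 to 133 CPM), and Cd22 (0 to 48.3 CPM).

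Monocyte genes summed to 111 to 709.6 CPM and neutrophil genes to 60.1 to 174 CPM, of which Csf3r, the G-CSF receptor, gave 39.9 to 87.99 CPM, while Camp and Ngp each had counts in 1 library. Dendritic cell genes reached 46.4 to 115 CPM and chondrocyte genes 66.6 to 179.7 CPM. Cardiomyocyte genes reached 29.1 to 99.9 CPM, of which Ttn, the sarcomere protein titin, gave 9.93 to 69.5 CPM, while Myl7 and Ckm had no counts. The erythroid list was at 0 to 25.3 CPM and the adipocyte list at 0 to 2.00 CPM. Inflammatory genes summed to 463 to 963 CPM, led by the interleukin-1 antagonist Il1rn (119.8 to 369 CPM), the chemokine Ccl2 (54.6 to 239.6 CPM) and the inhibitor Tnfaip3 (50.9 to 167 CPM). Proliferation genes summed to 278 to 519 CPM, with Mki67 at 209 CPM in replicate 8 and 62.4 to 131 CPM in the other 9. Cholesterol synthesis genes were steady, at 101 to 140.3 CPM over 17 genes, as were glycolysis genes, at 1056 to 1499 CPM over 16.

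Some programmes stood high in 1 library. In replicate 2 the 7 MHC class II genes summed to 8329 CPM, against 2441 in replicate 6 and 519 to 1752 in the other 8. Cd74, the invariant chain, was at 4322 CPM in replicate 2 and 139.8 to 1368 CPM in the other 9. H2-Aa, the class II alpha chain, was at 2146 CPM there and 119.8 to 589 CPM in the other 9. Genes known to respond to interferon gamma were high in the same library. Cxcl9, which attracts T cells, was at 217 CPM in replicate 2 and 0 to 35.5 in the other 9. Iigp1, an immunity-related GTPase, was at 236 and 3.42 to 53.6 CPM. Gbp6, a guanylate-binding protein, was at 82.4 and 1.54 to 33.8 CPM. Cd8a, of cytotoxic T cells, was at 56.4 CPM in replicate 2, 25.8 in replicate 3 and 0 to 9.92 in the other 8. These are values of 1 library and were not tested. The 13 genes of the interferon-stimulated list were high in replicate 2 but not there alone. They summed to 733 CPM in replicate 2, 640 in replicate 3, 838 in replicate 9 (on 42 counts) and 175.8 to 259 elsewhere. Ifit3 was at 123 CPM in replicate 3, 119.8 in replicate 9, 59.4 in replicate 2 and 7.28 to 18.0 elsewhere.

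The windows of H2-Aa (chr17:34287774-34288073, minus strand) and H2-Eb1, the class II beta chain (chr17:34305617-34305916, plus strand; both RefSeq, GRCm38.p6), are shown because both genes were high in replicate 2 and class II promoters are known to carry a CCAAT box near the start. Capitals mark ATTGG or its reverse complement. In H2-Aa the match begins 48 bases before the start, and in H2-Eb1 matches begin 59 and 35 bases before it, the second on the minus strand.
H2-Aa: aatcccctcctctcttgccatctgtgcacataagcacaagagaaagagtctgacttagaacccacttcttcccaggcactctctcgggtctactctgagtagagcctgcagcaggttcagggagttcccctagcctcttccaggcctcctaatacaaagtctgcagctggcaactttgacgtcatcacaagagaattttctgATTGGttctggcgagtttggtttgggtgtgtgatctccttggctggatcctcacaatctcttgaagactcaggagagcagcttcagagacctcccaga
H2-Eb1: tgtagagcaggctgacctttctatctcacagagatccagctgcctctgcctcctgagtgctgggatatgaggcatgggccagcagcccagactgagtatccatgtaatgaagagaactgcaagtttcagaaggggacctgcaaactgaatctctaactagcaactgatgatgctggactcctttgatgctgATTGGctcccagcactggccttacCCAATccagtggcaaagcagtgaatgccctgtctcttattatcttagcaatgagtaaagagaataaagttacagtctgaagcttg
Of the 7 class II genes 4 had an entry, H2-Ab1 not among them, and all 4 held the letters, as did 41.1% of all genes in the table. H2-Eb1 was at 616 CPM in replicate 2 and 47.4 to 199.6 CPM in the other 9.

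Replicate 1 stood out in matrix genes. Its fibroblast and matrix list summed to 15928 CPM, against 5559 to 11601 CPM in the other 9. Prg4, the lubricating proteoglycan lubricin, was at 9858 CPM there and 326 to 1782 CPM in the other 9. Vcan, a proteoglycan also made by monocytes, was at 640 and 51.7 to 119.8 CPM, and the fibrillar collagen Col3a1 at 4288 and 1052 to 2575 CPM. Col1a1 and Col1a2 did not share this, at 2179 and 2774 CPM in replicate 1 and 1131 to 2425 and 1124 to 3148 CPM in the other 9. The less abundant Col6a1 and Col6a2 did, at 330 and 272 CPM in replicate 1. They were at 68.9 to 179 and 53.6 to 186 CPM in the other 9. Replicate 3 was highest for Neat1, an RNA of nuclear paraspeckles, at 4728 CPM against 428 to 2456 CPM in the other 9. Mt2, a metal-binding metallothionein, was at 230.1 to 358 CPM in replicates 3 to 6 and 4.48 to 42.2 CPM in the other 6.

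**Figure D3:**
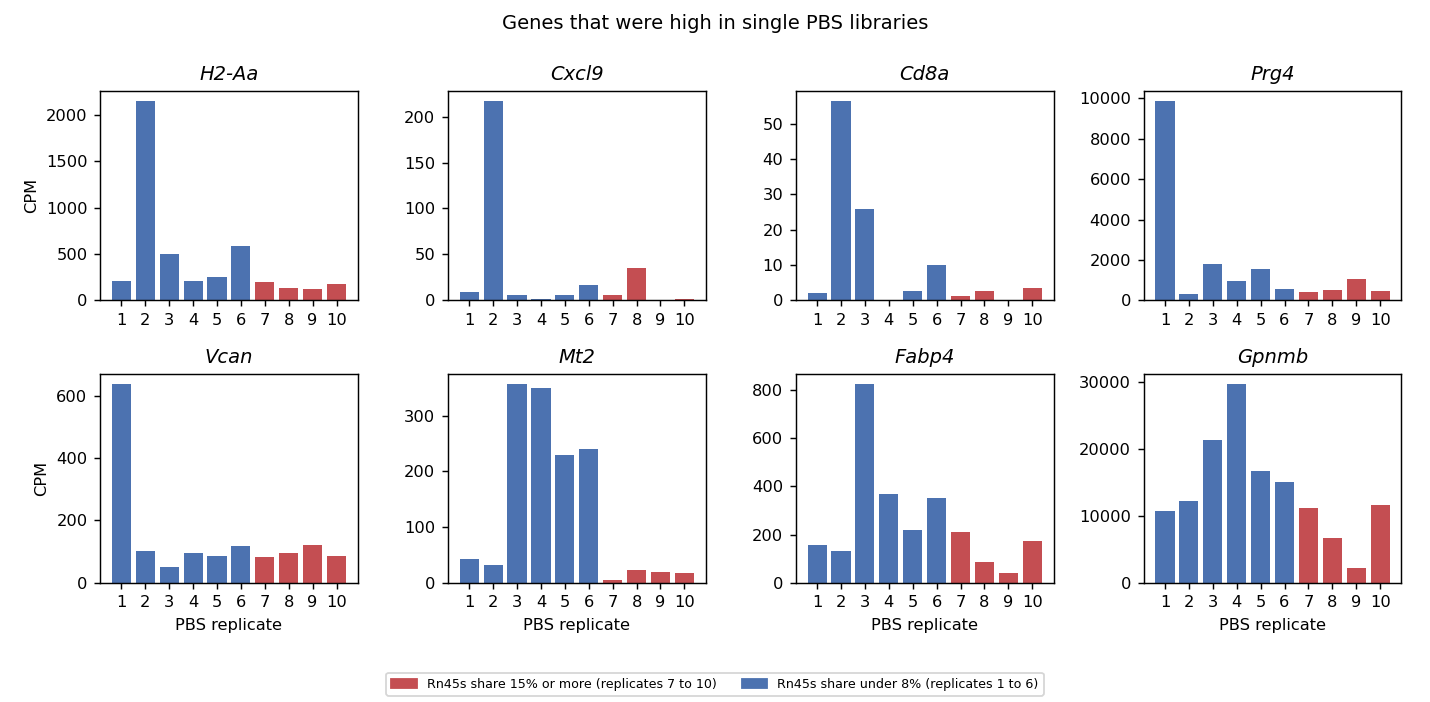
CPM of 8 genes in each PBS library as bars, coloured by whether the Rn45s share was 15% or more. H2-Aa, Cxcl9 and Cd8a were highest in replicate 2, Prg4 and Vcan in replicate 1, Mt2 and Fabp4 in replicate 3 and Gpnmb in replicate 4.

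Over the 10 libraries, genes of the foam cell list were higher where the macrophage genes were higher. The macrophage score, the mean log2 CPM of the 24 genes, was 6.23 in replicate 9, 7.57 to 7.82 in replicates 7, 8 and 10 and 7.94 to 8.15 in replicates 1 to 6. On this score 142 genes were higher and 8 lower of 8582 tested (edgeR quasi-likelihood slope test, Benjamini-Hochberg adjusted p under 0.05), or 1.65% and 0.0932% (1.75% in either direction). Of the foam cell list 14 of 22 were called higher and all 22 slopes were positive, with a median of 1.13 log2 units per log2 unit of score, beside a median of 0.18 over all genes. The lists were chosen with earlier results of these data known, so their counts cannot be read against chance. Ms4a7, a membrane protein of macrophages, had a slope of 2.14 ± 0.29 (SE, adjusted p = 0.000733) and Creg1, a lysosomal glycoprotein, 2.35 ± 0.34 (adjusted p = 0.000733). Ctsb had 1.87 ± 0.28, Psap 1.71 ± 0.26 and the proton pump subunit Atp6v0d2 1.80 ± 0.27, each with an adjusted p of 0.000856. Ms4a7 was at 39.9 to 223 CPM in replicates 7 to 10 and 409 to 623 CPM in replicates 1 to 6. Of resident-like genes 2 of 5 tested were called higher, Sepp1 and Folr2. None of the 12 smooth muscle genes was called, and all 12 slopes were negative. Lower with the score were Aqp1, a water channel (-1.01 ± 0.21, adjusted p = 0.0118), and Ctgf, a matrix-associated growth factor (-1.06 ± 0.26, adjusted p = 0.0426). Both had their highest level in replicate 9, at 479 and 2016 CPM against 78.7 to 127 and 212 to 817 CPM in the other 9.

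None of these calls was made among replicates 1 to 6 alone. Within them the fit on the macrophage score called 1 other gene and none of the foam cell list, whose median slope there was 0.40. The scores of the macrophage and foam cell lists had r = 0.112 (exact p = 0.889, adjusted 0.889) and rho = -0.0857 (exact p = 0.919, adjusted 0.919) over these 6 libraries. Of the 149 genes called on the macrophage score and tested there, 114 kept the sign of their slope. Those that turned included Aqp1 (0.36), Ctgf (2.29) and Folr2 (-1.50). With the log2 Rn45s share as a second term 21 genes were called, 8 of them foam cell genes, and Ctsb (1.60), Psap (1.53), Ms4a7 (2.12) and Creg1 (2.16) still passed. Without replicate 8, 9 or 10 the fit called 60, 315 (169 higher and 146 lower) and 94 genes, of which 8, 7 and 11 were of the foam cell list.

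The osteoprotegerin gene Tnfrsf11b, Hspg2, Acan and Vwf were among the genes higher with the smooth muscle score. The fit called 76 genes higher and 72 lower of 8593, or 0.884% and 0.838% (1.72% in either direction). Tnfrsf11b, which encodes a decoy receptor in bone and arteries, had a slope of 1.41 ± 0.22 (adjusted p = 0.00111) and was at 65.5 to 339 CPM in replicates 7 to 10 and 27.4 to 62.4 CPM in replicates 1 to 6. Hspg2, the basement membrane proteoglycan perlecan, had 1.18 ± 0.20 (adjusted p = 0.00214), and Acan, the proteoglycan aggrecan, 2.21 ± 0.36 (adjusted p = 0.00186). Vwf, at 1.14 ± 0.20 (adjusted p = 0.00214), was the 1 of 14 endothelial genes called. Lower with the score were Folr2, a folate receptor of resident macrophages (-1.89 ± 0.29, adjusted p = 0.00111), and Tfrc, the transferrin receptor (-1.35 ± 0.21, adjusted p = 0.00111). Tfrc was at 0 to 35.8 CPM in replicates 7 to 10 and 51.7 to 154 CPM in replicates 1 to 6. Of the macrophage list 2 of 23 were called lower, C1qa and C1qc, and of the foam cell list 3 of 22, Acp5, Cd9 and Ctsl. Within replicates 1 to 6 the fit called 7 genes, and the slopes of Hspg2 and C1qc turned to -0.14 and 0.0226; with Rn45s share as a second term it called 1. Without replicate 1, 3, 4, 6, 7, 8 or 10 it called 338, 268, 49, 77, 87, 9 and 12 genes.

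Genes were also associated with the Rn45s share itself. Of 8599 genes 192 were higher and 197 lower with it, or 2.23% and 2.29% (4.52% in either direction); slopes here are log2 units per doubling of the share. Lars2 had 0.96 ± 0.13 (adjusted p = 0.000257), Hspg2 0.58 ± 0.09 (adjusted p = 0.000826) and Piezo1, a mechanically gated channel, 0.60 ± 0.10 (adjusted p = 0.0018). Lower were Ccl19, a chemokine for CCR7 (-0.64 ± 0.09, adjusted p = 0.000257), and the ribosomal protein genes Rps21 (-0.46 ± 0.08, adjusted p = 0.0018) and Rpl37 (-0.42 ± 0.08, adjusted p = 0.0028). Rps21 was at 46.8 to 79.9 CPM in replicates 7 to 10 and 126 to 236 CPM in replicates 1 to 6, with no overlap. Of the macrophage list 4 of 23 were lower, C1qa, C1qc, Cd14 and Ctss. Of the smooth muscle list 3 of 12 were higher, Lmod1, Myl9 and Smtn, and all 12 slopes were positive (median 0.47).

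Genes called in opposite directions differed in transcript length. The median exon length was 5651 bases among genes higher with the Rn45s share, 2059 among those lower and 3723 among those not called; for the smooth muscle score it was 5848, 2021.5 and 3709.5 bases in the same order. Among genes higher with the macrophage score it was 2106 bases, against 3740 among those not called. Length and ribosomal RNA share moved with these results, and their part in them was not tested. Within replicates 1 to 6 the fit on the Rn45s share called 0 genes by edgeR, 676 having an unadjusted p under 0.05, and the slopes of C1qa and C1qc turned to 0.0694 and 0.0196. Without replicate 1, 3, 6, 7, 8 or 10 it called 678, 255, 257, 172, 63 and 64 genes. Without replicate 8 or 10 the smooth muscle count was 1 and 0 of 12, and the macrophage count 1 of 23 each time.

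**Figure D4:**
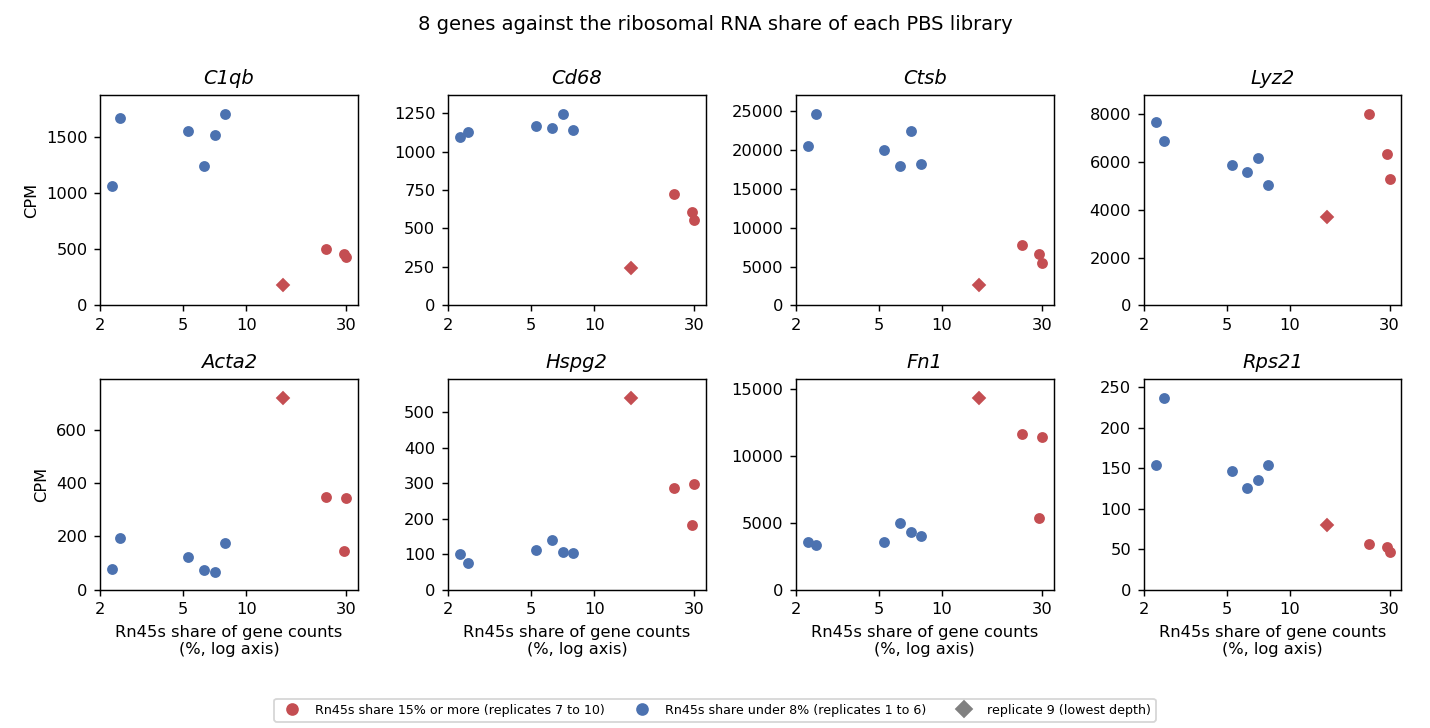
CPM of 8 genes against the Rn45s share of gene counts in percent on a log axis, 1 point per PBS library. C1qb, Cd68, Ctsb and Rps21 were lower in all 4 libraries with a share of 15% or more than in the other 6, Hspg2 and Fn1 higher in all 4, and Acta2 and Lyz2 overlapped.

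**Figure D5:**
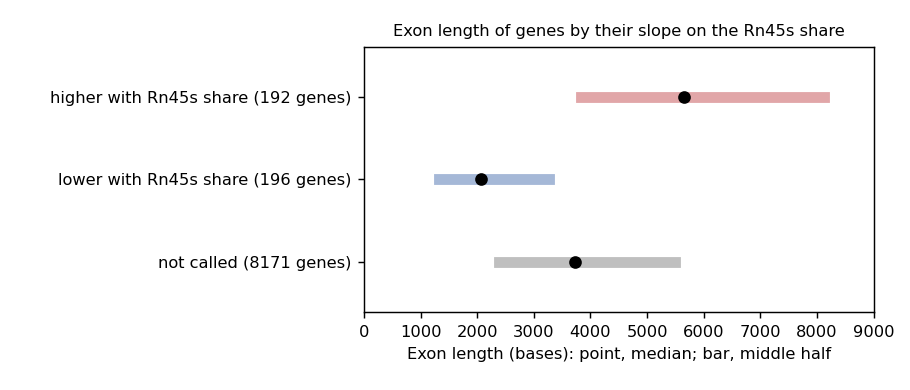
Exon length in bases of genes higher with the Rn45s share (192 genes), lower (196 with a length) and not called (8171), with the median as a point and the quartiles as the ends of a bar. The median of genes higher with the share was 5651 bases and that of genes lower with it 2059 bases.

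Clustering placed macrophage and smooth muscle genes in different modules. Of the 1000 genes of largest spread, average linkage on 1 minus r placed 475 in the first of 6 modules, with 13 of 13 macrophage, 17 of 17 foam cell and 4 of 4 class II genes among the 1000. Its mean, in SD units per gene, was -1.74 in replicate 9, -0.37 to -0.18 in replicates 7, 8 and 10 and 0.24 to 0.84 in replicates 1 to 6. Genes closest to that mean included Creg1, Ctsb and C1qb. The second module, of 368 genes, held 7 of 7 smooth muscle and 6 of 7 fibroblast and matrix genes, with Col12a1, a fibril-associated collagen, Hspg2 and Fat1 near its mean. Rn45s itself, Lars2 and Malat1 were also members of the second module. Its mean was at 0.33 to 0.77 in replicates 7 to 10 and -1.03 to -0.10 in replicates 1 to 6. The module therefore cannot be told apart from the ribosomal RNA share.

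Without replicate 9, modules of 441 and 397 genes took these places, holding 6 of 8 macrophage and 10 of 10 foam cell genes in the first and 6 of 7 smooth muscle genes in the second. Rn45s and Lars2 again lay in the second. The 4 class II genes then lay in a module of 35 genes that was high in replicate 2 (1.87) together with Iigp1, Gbp2, Gbp4 and Gbp6. A module of 44 genes was high in replicate 1 (1.78), with Vcan, the adhesion molecule Selp and the gap-junction protein Gja1. The first principal component over 8605 genes took 62.2% of the variance and set replicate 9, at -174.1, apart from the other 9, at 13.04 to 23.6. Without that library it took 33.1%, with replicate 3 at 72.2 and replicates 7, 8 and 10 at -28.1 to -22.3; Mt2, Cd5l and Apoc1, an apolipoprotein, were among the genes of largest positive loading.

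Spread between libraries beyond counting error was largest for class II and interferon-stimulated genes among the lists. The common coefficient of variation was 30.3% in PBS, beside 28.3% (TRAF6i-HDL), 25.3% (mTORi-HDL) and 20.9% (S6K1i-HDL) elsewhere in the series, with no test. By list the median was 79.0% for MHC class II, 66.2% for interferon-stimulated, 55.8% for smooth muscle, 35.8% for foam cell, 31.3% for macrophage and 25.1% for glycolysis genes. Single genes with a mean of at least 20 CPM ran from 145% for Cxcl9, 119.7% for Mt2, 113% for Cd5l and 111% for Apoc1 to 19.7% for Derl1 and 20.2% for Nr3c1, the glucocorticoid receptor. Nr3c1 was at 71.1 to 119.8 CPM over the 10 libraries, and Apoc1 at 0 to 1.81 CPM in replicates 7 to 10 and 27.4 to 72.5 CPM in replicates 1 to 6. Within replicates 1 to 6, none of 12 pairs of list scores passed after adjustment over the 12 (two-sided exact permutation tests). The strongest were smooth muscle with endothelial (r = 0.883, exact p = 0.0319, adjusted 0.191; rho = 0.943, exact p = 0.0167, adjusted 0.1) and smooth muscle with fibroblast and matrix (r = -0.827, exact p = 0.0139, adjusted 0.167; rho = -0.943, exact p = 0.0167, adjusted 0.1). Without the 2 libraries farthest from the median smooth muscle score, replicates 1 and 2, r was 0.76 and -0.66.

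Genes addressed by the drugs of the series were counted in most PBS libraries. Traf6, an adaptor that carries CD40 signals, had 23.1, 28.5 and 39.9 CPM as lowest, median and highest, and Cd40 itself 0, 2.57 and 7.99 CPM. Mtor, a kinase of growth control, had 0, 28.7 and 51.3 CPM, at 0 in replicate 9, and Rps6kb1, which encodes its substrate S6K1, 39.9, 66.9 and 119 CPM. Apoe, the gene altered in the strain, was at 0 to 1.21 CPM in replicates 7 to 10 and 4.22 to 10.8 CPM in replicates 1 to 6.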

How the data were processed

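RNA sequencing of laser-captured plaque gave 39 deposited files, 1 per sample, each with raw read counts for 24062 mouse gene symbols and closing lines on unassigned reads. The submitters' processing notes list HTSeq 0.6.1, TopHat2 2.1.0 and Bowtie2 2.2.8 without saying what each did, and the build hg19, a human assembly that cannot lie behind mouse symbols; the mouse build, the annotation and the strand setting are not given in the sources used here, so overlapping and antisense genes cannot be told apart. Of all reads listed, 47.1% to 60.1% lay outside genes in the PBS files and were left out. The 10 PBS samples were grouped by their title. CPM values divide by all gene counts; TPM-like values use union exon lengths of GENCODE vM21, found for 23685 of 24062 symbols.

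Slope fits used edgeR 4.0.16 in R 4.3.3 with limma 3.58.1 (estimateDisp, glmQLFit and glmQLFTest, robust) on genes with at least 7.46 CPM in 4 or more libraries, which left 8605 genes. A score is the mean TMM-scaled log2 CPM of a list with a prior count of 2, and its own members were left out of the counts of calls; Rn45s was left out of the fit on its share. SE is the slope divided by the root of F. Levels, modules, principal components and spread are descriptions. Correlations of scores had been planned over 10 samples and were run over replicates 1 to 6, because the libraries fall into clusters by Rn45s share. On simulated data for the Rn45s fit, 63% of 100 genes with a slope of 0.5 and 99% of 100 with a slope of 1 were recovered. Alternatives were DESeq2 1.42.0 (Wald test or size factors), limma-voom, other filters, the total count as a second term and leaving out each library; the fit within replicates 1 to 6, the Rn45s share as a second term, a filter with all libraries as 1 group and the modules without replicate 9 were added after seeing the data. Plots were made in matplotlib 3.10.9 under Python 3.11.15.

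The members and lists were chosen with earlier results of these data known. Named were the 25 genes with most counts, the 15 highest per kilobase, listed markers, the 10 genes of smallest p in each direction of a fit, the 15 of largest and smallest spread, the 5 most like Cd68, Acta2, Pecam1 and Lyz2, and the leading genes of components. Members of the lists beyond their 3 most abundant, and genes named for modules, were picked after their values were seen. A few genes that these rules name are not reported here. Promoter windows came from RefSeq for GRCm38.p6.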

Additional observations from a re-analysis of the deposited data

Results flagged for a closer look

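Of 117 lists and genes tested over the 10 PBS libraries, 31 had an extreme library whose gap to the nearest other, over the whole range, was above Dixon's critical value for 10 samples, where chance gives about 5%; many were named for a large spread or after their values were seen, so the share cannot be read against chance. Of these 11 came from replicate 9, 9 from replicate 2, 7 from replicate 1, 3 from replicate 3 and 1 from replicate 8.

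Replicate 9, the library with 50091 gene counts, was highest for the smooth muscle list (3214 CPM, 161 counts), the endothelial list (1617 CPM, 81 counts), Cald1 (1238 CPM), Acta2 (718.7 CPM), Vwf (339.4 CPM), Pcna, a DNA replication clamp (159.7 CPM), Ccr2, a monocyte chemokine receptor (139.7 CPM), Comp, a cartilage matrix protein (119.8 CPM), and Cxcr2, a neutrophil chemokine receptor (79.85 CPM). It was lowest for Emr1 (19.96 CPM, 1 count) and Cd22 (0 CPM). The last 4 of the high genes rest on 8, 7, 6 and 4 counts.

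Replicate 2 was highest for the MHC class II list (8329 CPM), Cd74 (4322 CPM), H2-Aa (2146 CPM), H2-Ab1 (1129 CPM), Iigp1 (236.2 CPM), Cxcl9 (216.7 CPM), Tnfaip3 (166.8 CPM), Gbp6 (82.39 CPM) and the dendritic cell list (114.8 CPM). Replicate 1 was highest for Prg4 (9858 CPM), Col3a1 (4288 CPM), Vcan (640 CPM), Il1rn (369 CPM), Sox9, a chondrocyte transcription factor (82.24 CPM), the monocyte list (709.6 CPM, of which Vcan is a member) and the erythroid list (25.31 CPM, 24 counts). Replicate 3 was highest for Neat1 (4728 CPM), Cytl1 (95.35 CPM) and Mbp, a myelin protein (61.58 CPM), and replicate 8 for the proliferation marker Mki67 (209.1 CPM). The causes were not tested.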

How the results depend on the processing

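No paired analysis was possible because there is 1 group and no comparison between groups. The smooth muscle score called 148 genes, and 338 with the DESeq2 Wald test, 721 with limma-voom, 7 within replicates 1 to 6, 1 with Rn45s share as a second term and 9 to 338 leaving out each library. The macrophage score called 150 genes, and 578 with the total gene count as a second term, 95 with the filter over all libraries as 1 group, 1 within replicates 1 to 6, 21 with Rn45s share as a second term and 60 to 315 leaving out each library. The Rn45s share called 389 genes, and 686 with the Wald test, 758 with limma-voom, 155 with the total count as a second term, 0 within replicates 1 to 6 and 63 to 678 leaving out each library. Within replicates 1 to 6 slopes on the smooth muscle score turned to -0.14 for Hspg2 and 0.0226 for C1qc, those on the Rn45s share to 0.0694 for C1qa and 0.0196 for C1qc, and slopes on the macrophage score turned to 0.36 for Aqp1, 4.34 for F5, 0.89 for Tnfrsf11b, 4.72 for Cdkn2d, 2.29 for Ctgf and -1.50 for Folr2. The other recomputed slopes of named genes kept their sign. Of these values 104 lost significance, and 85 more on leaving out a library. Over all called genes tested within replicates 1 to 6, the sign was kept by 126 of 142 (smooth muscle score), 114 of 149 (macrophage score) and 345 of 381 (Rn45s share). With Rn45s share as a second term it was kept by 142 of 148 called on the smooth muscle score and 150 of 150 on the macrophage score. With scores taken as log2 summed CPM, 4 of 36 recomputed correlations, none of which had passed, changed sign. The correlation macrophage with T and NK cell became -0.252, the correlation macrophage with fibroblast and matrix 0.423, the correlation smooth muscle with cardiomyocyte 0.27 and the correlation Rn45s share with smooth muscle -0.386. Leaving 1 library out was not run for correlations, since fewer than 6 libraries would remain. With Rn45s left out of the total, the mean list level cholesterol synthesis was 138.8 CPM and the mean list level glycolysis and hypoxia 1504.6 CPM, against 119.8 and 1305 CPM; the other list and gene levels moved by less than 1 SD. The causes were not tested. Depth limits replicate 9 most, where 3 counts are 59.9 CPM.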
